A study of Gallus gallus with 3 samples.

Results

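H2AFZ, the chicken gene that encodes the histone variant H2A.Z1, was followed through every line of a knockout and rescue series in DT40, a chicken B-lymphoma line much used for gene targeting because introduced DNA integrates at the matching locus at high frequency. It was found as all non-control probes that carry its RefSeq accession, NM_001031374, which gave 2 probes, A_87_P037084 (probe 1) and A_87_P194348 (probe 2), out of 43603 on the array, and it was 1 of 5382 genes that could be named. The series holds 3 groups with 1 array each. These are wild-type DT40 cells, double-knockout (DKO) cells that carry full-length H2A.Z1, and DKO cells that carry H2A.Z1ΔC. The labels do not say which genes the double knockout removed, what drives the introduced H2A.Z1, what exactly the ΔC form lacks, or whether a line is 1 clone. No untransfected DKO cells are among the samples analysed here, so both DKO arrays carry the knockout and an introduced H2A.Z1 together. With 1 array per group there is no replicate check and no p-value is given. The small number of arrays therefore limits how precisely any difference is known.

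H2A.Z replaces ordinary H2A in part of the nucleosomes, above all those beside active transcription start sites. Vertebrates make it from a pair of genes whose proteins are nearly identical. The SRCAP and TIP60/p400 complexes exchange H2A for H2A.Z in chromatin, and the chaperone ANP32E takes part in removing it. The C-terminal tail of H2A.Z lies at the surface where the variant's dimer meets the rest of the nucleosome and helps to hold the variant in chromatin. In the table of RefSeq genes used for naming (assembly GRCg7b), H2AFZ lies on chromosome 4, and the second H2A.Z gene, H2AZ2, is listed apart. The older name H2AFV is a synonym of both of these genes (2 entries). No probe matched H2AZ2 by accession (0 probes). Only 27.4% of probes could be named, so a probe for this gene may be among the unnamed ones.

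The DT40 arrays carried a B-cell signature. Of 10 B-cell markers with a probe, 9 were well above background in wild type and all 10 in each DKO line. The median log2 level of these markers was 1.88 in wild type, 1.92 with full-length H2A.Z1 and 1.61 with H2A.Z1ΔC, relative to the array's 75th percentile of signal. Markers of T cells, red cells, myeloid cells and fibroblasts were detected in part but were dim, with medians between -6.84 and -4.37. The wild-type and full-length arrays shared slide 1 and scan 1, and the H2A.Z1ΔC array was on slide 2 in scan 2, so slide and genotype cannot be told apart in any comparison with H2A.Z1ΔC.

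In wild-type cells H2AFZ was among the brightest probes on the array. Probe 1 had a processed signal of 85004 ± 8500, and probe 2 had 104438 ± 10444. The error is the scanner software's own estimate for a single spot. It was a nearly fixed share of the signal at both probes on every array (0.14 on the log2 scale). It does not measure a spread between spots or cultures. On the array of DKO cells with full-length H2A.Z1 the same spots read 2725 ± 273 and 1253 ± 125. On the H2A.Z1ΔC array they read 897 ± 89.8 and 576 ± 57.6. The wild-type spots therefore stood far above both DKO lines at each probe, and the full-length line read higher than the truncated line at each probe. These signals are not scaled between arrays, and the H2A.Z1ΔC array was dimmer as a whole, with a 75th percentile of 1039 against 1558 on the full-length array. With spike-in scaling the order of the DKO lines turned at probe 2, to a log2 difference of 0.09.

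**Figure D1:**
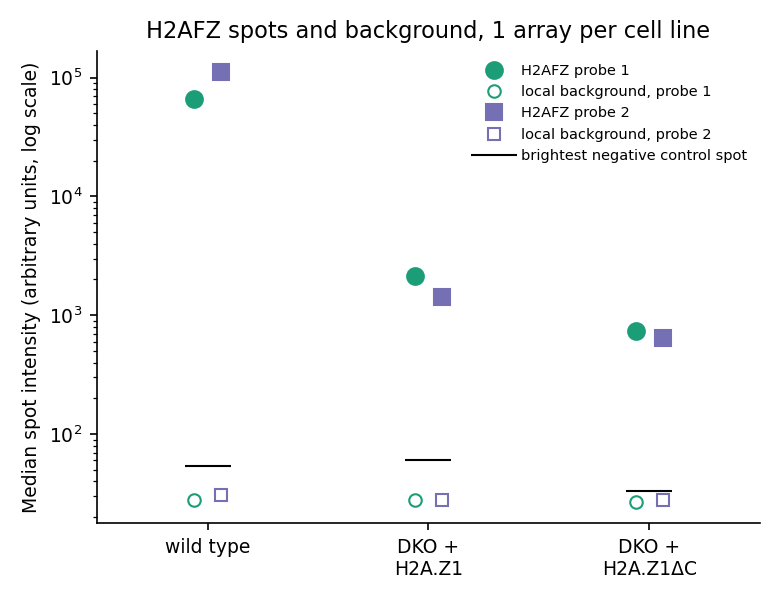
Median spot intensity (vertical axis, arbitrary units on a log scale) of the H2AFZ probes on each of the 3 arrays, as filled symbols, with the local background of each spot as open symbols and the brightest negative control spot as a bar. Wild-type spots lie at 66022 and 110859, the DKO spots between 643 and 2131, and every background value at 60 or below.

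The signal that remained in the DKO lines was well above background by the scanner's criterion at both probes and on both arrays. The median spot intensity of probe 1 was 76.1 times its local background on the full-length array and 27.1 times on the H2A.Z1ΔC array. Probe 2 stood at 51.0 and 23.0 times its local background on the same arrays. The brightest of 153 negative control spots reached 60 for the full-length line and 33 for the H2A.Z1ΔC line, so the H2AFZ spots were 23.8 to 35.5 times brighter than the brightest negative control on the former and 19.5 to 22.2 times on the latter. The wild-type spots used 8.48% and 14.2% of the scanner's saturation value, and no non-control spot was saturated on any array (0 spots), so the wild-type level was not clipped. The local background of probe 2 on the wild-type array carried the software's outlier flag, at an intensity of 31 against 28 on both DKO arrays, which is small beside its signal of 110859.

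Spots printed beside the H2AFZ probes gave no comparable signal in the case of probe 1. The 6 nearest spots to probe 1 ranged from 33 to 564 on the full-length array and from 35 to 313 on the H2A.Z1ΔC array, below its own 2131 and 732.5. The 6 spots nearest to probe 2 had a median of 492.5 for the full-length line and 377.5 for the H2A.Z1ΔC line. One of these 6 was very bright, with 121422 and 93587. The other 5 spots around that bright spot had a median of 50 and 42 on these arrays, close to background, whereas probe 2 read 1427 and 643. Whether light from the bright spot added to probe 2 was not tested.

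Among all 43596 unflagged probes H2AFZ ranked 459th (probe 1) and 357th (probe 2) in wild type, above 98.9% and 99.2% of probes. On the full-length array probe 1 ranked 8460th, above 80.6% of probes, and probe 2 ranked 11763rd, above 73.0%. On the H2A.Z1ΔC array the ranks were 11506 and 13413, above 73.6% and 69.2% of probes. Counted only among probes well above background, the H2AFZ probes still exceeded 71.7% and 60.7% of them on the full-length array and 63.7% and 57.7% on the H2A.Z1ΔC array. Both DKO lines thus gave H2AFZ signals above the median of the detected probes. Brightness also depends on each probe's sequence, so these ranks describe signal and not numbers of transcripts.

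**Figure D2:**
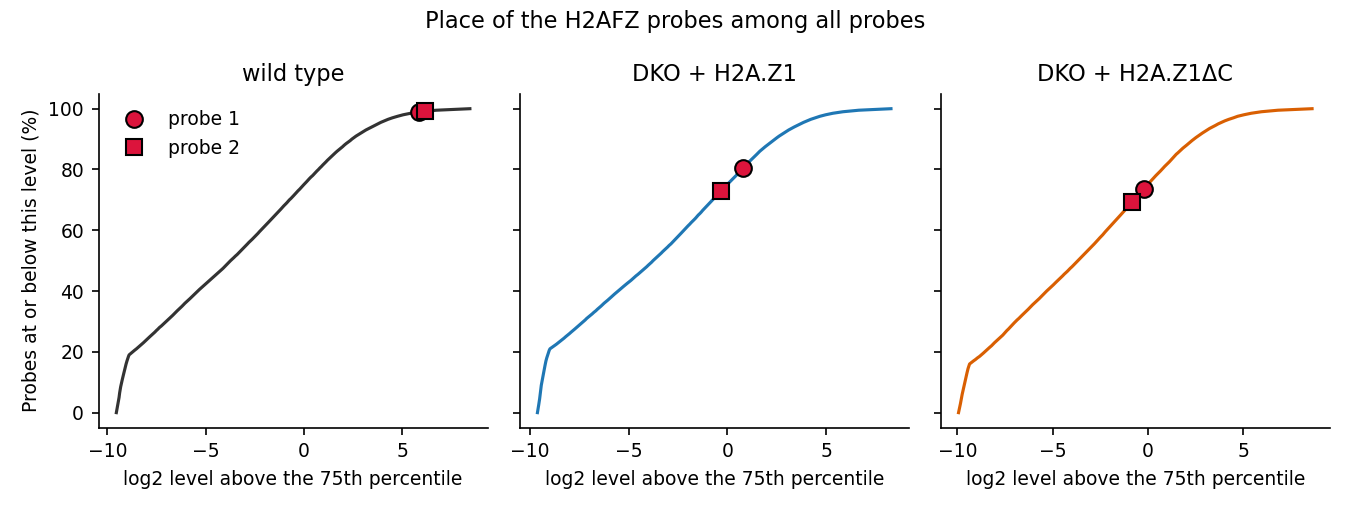
Share of all probes at or below a given log2 level (vertical axis, percent) against the log2 level above the array's 75th percentile (horizontal axis), 1 panel per array, with the H2AFZ probes marked. The markers sit at 98.9% and 99.2% in wild type, at 80.6% and 73.0% with full-length H2A.Z1 and at 73.6% and 69.2% with H2A.Z1ΔC.

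Set against wild type, the full-length line shows how much H2AFZ signal was present after knockout and rescue. Scaled by each array's 75th percentile, the log2 level of probe 1 was 5.87 in wild type and 0.81 in the full-length line. Probe 2 went from 6.17 to -0.31. The full-length line thus kept 3.0% of the wild-type signal at probe 1 and 1.12% at probe 2. The log2 differences were -5.06 ± 0.20 and -6.48 ± 0.20, with the error again from the scanner's estimate for single spots. This error is nearly the same for every H2AFZ difference given here and does not measure variation between cultures. Of 29230 probes that were detected above background on each of these arrays, 655 (2.24%) were lower by 1 or more. Only 6 were lower by at least as much as probe 1, both H2AFZ probes included. The other 4, named after their values were seen, were a probe of OAF at -5.48 and 3 probes without a gene name. Probes that were dim in wild type could not be lower by this much and still be detected. With no background filter the count was 13.

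The DKO line with H2A.Z1ΔC had less H2AFZ signal again relative to wild type at this scale. Its log2 levels were -0.21 at probe 1 and -0.85 at probe 2, so that 1.48% and 0.77% of the wild-type signal remained. The log2 differences from wild type were -6.08 ± 0.20 and -7.02 ± 0.20. Of 29594 probes, 1114 (3.76%) were lower by 1 or more in this comparison. Only 3 were lower by at least as much as probe 1, namely both H2AFZ probes and a probe without a gene name. With no background filter the count was 6. The comparisons with wild type share the wild-type array, and this one also spans both slides.

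Between the DKO lines the H2AFZ signal was lower with H2A.Z1ΔC than with full-length H2A.Z1, by a log2 difference of -1.02 ± 0.20 at probe 1 and -0.54 ± 0.20 at probe 2. These correspond to 2.03-fold and 1.45-fold. Of 29499 probes, 495 (1.68%) were lower by 1 or more, and probe 1 was 1 of these. A difference at least as large as that of probe 2 was found at 2256 probes (7.65%), and the robust standard deviation over all probes was 0.364. Probe 1 thus lay well outside that spread, with 468 probes (1.59%) lower by at least as much, and probe 2 lay nearer to it. With the full-length sample taken from the deposited matrix they were -0.55 and -0.21. With the spike-in control probes as the scale they were -0.39 and 0.09, so probe 2 changed sign.

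The scale matters in this last comparison because the arrays differed in overall brightness. The Agilent E1A spike-in control probes, for which the labels state no added amount, were 0.05 brighter on the log2 scale on the full-length array than in wild type, as a median over 8 probes. On the H2A.Z1ΔC array they were 1.16 dimmer than in wild type, while the 75th percentile of signal went only from 1455 to 1039. The 8 probes disagreed on that array, with log2 differences from -2.19 to -0.83. The spike-in scale is therefore itself uncertain there, and so is the sign of a difference as small as that of probe 2 between the DKO lines. Scaling by spike-ins moved the median over all probes in H2A.Z1ΔC against wild type to 0.69, and it put H2AFZ at -5.40 and -6.34. The H2AFZ difference from wild type thus exceeded that shift many times over at either scale. The processed signals of both probes lay between the dimmest and the brightest of these 8 spike-in probes on every array, from 86.9 to 280662 in wild type, from 94.4 to 282972 in the full-length line and from 19.1 to 158280 with H2A.Z1ΔC.

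A second set of values, the series matrix, gave a further reading of the full-length sample. Its wild-type and H2A.Z1ΔC columns were the scanner's processed signals times 1.07 and 1.53. The full-length column was not a multiple of the deposited scanner signal, with a robust standard deviation of 0.322 for the log2 ratio, and its source array is unknown. It held 2005 for probe 1 and 1016 for probe 2, or log2 levels of 0.34 and -0.64. This left 2.16% and 0.89% of the wild-type signal, log2 differences of -5.53 and -6.81. Scaled by the 75th percentile, both sets of values placed the full-length line between wild type and H2A.Z1ΔC at each probe, with the matrix values nearer to H2A.Z1ΔC.

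The 2 probes did not move by the same amount. In wild type probe 2 was the brighter spot, and the ratio of probe 1 to probe 2 was 0.81. In the full-length line probe 1 was brighter, with a ratio of 2.17, and with H2A.Z1ΔC the ratio was 1.56. The matrix column of the full-length sample gave 1.97. Raw median intensities put the log2 ratio at -0.75, 0.58 and 0.19 in the same order of lines, against -0.30, 1.12 and 0.64 for the processed signal. After its correction for spatial trends, the software's processed signal was 1.18 to 1.25 times the background-subtracted signal at probe 1 and 0.91 to 0.93 times that signal at probe 2. Raw and processed values thus differed in the ratio itself, in the same direction on all 3 arrays, and both gave a higher ratio in the DKO lines than in wild type.

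The reduction against wild type was smaller at probe 1 than at probe 2 by 1.42 on the log2 scale in the full-length line and by 0.94 with H2A.Z1ΔC. For the 1391 other genes with exactly 2 probes that exceeded background on every array, the gap between the probes' differences had a median of 0.085 in the first comparison and 0.181 in the second. A gap of 1 or more occurred in 1.22% of these genes in the first comparison, 2.59% in the second and 2.01% between the DKO lines. Gaps at least as large as that of H2AFZ were found for 10 genes (0.72%), 41 genes (2.95%) and, between the DKO lines, where the H2AFZ gap was -0.48, 150 genes (10.8%). Most of those genes differed little between the lines. Among the 31 genes whose probes both differed by 1 or more between the full-length line and wild type, 2 had a gap as large, and among the corresponding 67 for H2A.Z1ΔC, 5 had one. The unequal change of the H2AFZ probes was the same in direction under each of the 9 alternative settings, at 1.28 to 1.43 in the full-length line and 0.93 to 0.95 with H2A.Z1ΔC. Median scaling, no scaling and spike-in scaling subtract a constant per array, so they cannot change this gap. Nor can the matrix values change it in H2A.Z1ΔC against wild type. The probe sequences are not given in the sources used here, so whether either probe lies in the part of the transcript that the knockout or the introduced H2A.Z1 keeps is not known, and the remaining signal cannot be assigned to either.

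**Figure D3:**
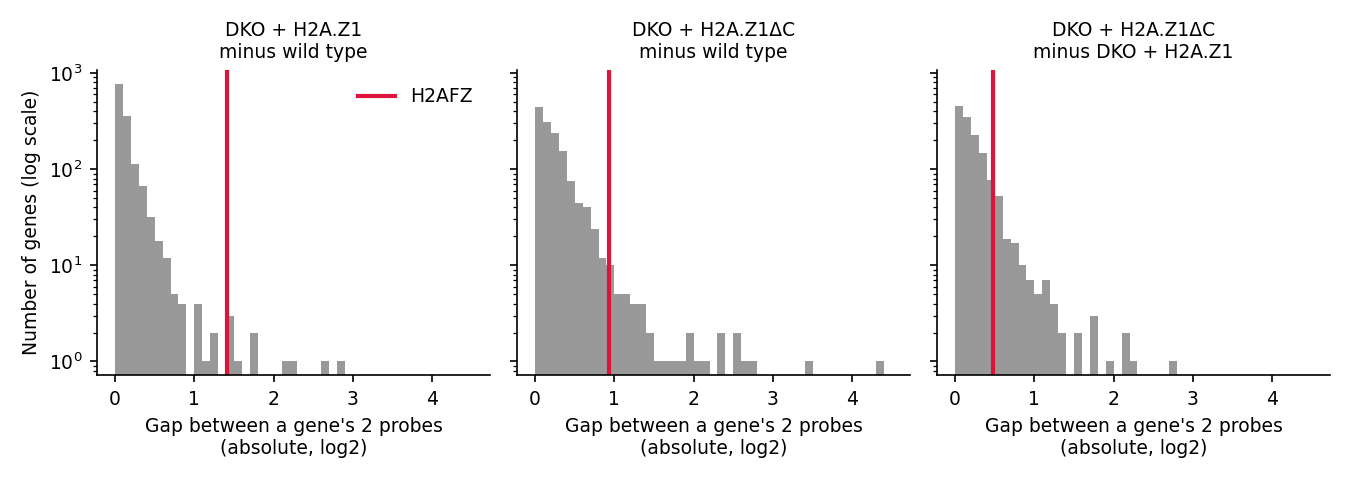
Number of genes (vertical axis, log scale) by the absolute gap on the log2 scale between the differences of their 2 probes (horizontal axis), 1 panel per comparison, with H2AFZ as a line. The H2AFZ gap is 1.42, 0.94 and 0.48 from left to right, reached by 10, 41 and 150 of the 1391 other genes.

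Bright probes seldom moved like H2AFZ. Of the 500 brightest probes in wild type, 3 were lower by 1 or more in the full-length line, and each of these was lower by more than 5. They were the H2AFZ probes and a probe that carries the GenBank accession V00414, for which the files and the RefSeq table give no gene name. With H2A.Z1ΔC the same probes were lower by more than 5, and the only further one of the 500 that was lower by 1 or more was a probe of CD72, a B-cell surface receptor, at -1.56. The V00414 probe, chosen after its values were seen, had a log2 level of 6.63 in wild type, -2.28 in the full-length line and -3.0 with H2A.Z1ΔC. Its differences from wild type were -8.91 and -9.63, larger than those of either H2AFZ probe, and the matrix column of the full-length sample gave -8.94. It stood 0.72 lower with H2A.Z1ΔC than with full-length H2A.Z1. No other probe that was lower by 5 or more in both DKO lines and measured on all 3 arrays was found. A further 10 probes lower by 5 or more in both lines were not well above background on at least 1 DKO array, and their wild-type levels were all below the 75th percentile.

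**Figure D4:**
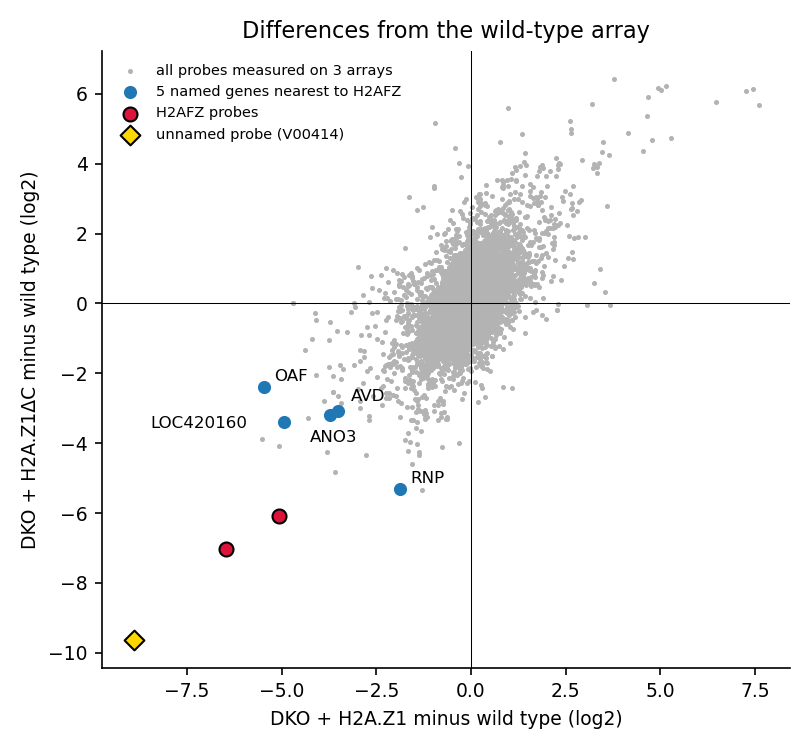
Log2 difference from wild type in DKO cells with full-length H2A.Z1 (horizontal axis) and with H2A.Z1ΔC (vertical axis) for the probes well above background on all 3 arrays (grey points). The H2AFZ probes lie at -5.06 and -6.48 on the horizontal axis and the V00414 probe at -8.91. The 5 named genes nearest to H2AFZ among these probes lie closer to the origin. Both axes use the same wild-type array, so part of the slope of the cloud comes from that shared array.

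The named genes most like H2AFZ were sought among the 4193 other genes with a probe well above background on all 3 arrays. The measure was the distance between their differences from wild type on both DKO arrays and the mean of the H2AFZ probes. Each gene was represented by its detected probe of highest mean signal. Among these genes none came close. The nearest was LOC420160, an uncharacterised locus, at a distance of 3.26 on the log2 scale, with differences of -4.95 and -3.39. ANO3, a member of the anoctamin family of ion channels and lipid scramblases, followed at 3.94 with -3.71 and -3.19. RNP lay at 4.08 with -1.87 and -5.32, AVD, the gene of the egg-white protein avidin, at 4.14 with -3.50 and -3.09, and OAF at 4.17 with -5.48 and -2.39. The wild-type levels of these 5 genes were far below that of H2AFZ, between -3.72 for AVD and -0.83 for LOC420160, against 5.87 and 6.17. In the matrix, the full-length sample put LOC420160 at -1.95, OAF to -2.81 and RNP to -4.74, so the place of these 3 genes in the full-length line depended on which set of values was used. Another ANO3 probe, at -4.31 and -4.54, was well above background only in wild type. So was another AVD probe, at -3.19 and -2.21. A further AVD probe, at -0.08 and -0.44, was not well above background on any array. The search left out genes that fell to background in a DKO line. A probe of CDH2, named after its values were seen, differed from wild type by -5.62 and -6.48, close to H2AFZ. Its wild-type level was -2.92, and it was not well above background on either DKO array.

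Genes next to H2AFZ on chromosome 4 were close to their wild-type level in the full-length line. The 3 nearest genes with a probe before it in the RefSeq gene order were DNAJB14, a co-chaperone of the DnaJ family, LAMTOR3, a subunit of the lysosomal Ragulator complex, and DAPP1, an adaptor of B-cell receptor signalling. After it came NFKB1, a subunit of the transcription factor NF-κB, UBE2D3, a ubiquitin-conjugating enzyme, and PDLIM3. NFKB1 and PDLIM3 are separated from H2AFZ by 7 and 18 genes of the table, so only the first 3 are close. Over the 14 probes of 5 of these genes that were well above background on all arrays, the log2 difference between the full-length line and wild type ranged from -0.10 to 0.25. The 4 probes of DNAJB14, which lies directly beside H2AFZ, gave -0.06, 0.14, 0.21 and 0.24. With H2A.Z1ΔC the 14 probes ranged from -0.91 to 0.32 against wild type. The lowest were both probes of DAPP1, at -0.83 and -0.91, whereas DNAJB14 stood between -0.32 and 0.26. None of these 14 probes differed by 1 or more in either comparison with wild type, and the matrix column of the full-length sample ranged from -0.52 to 0.27. PDLIM3 was not well above background in wild type or the full-length line, so it is not among the 14 probes. A PDLIM3 probe was well above background with H2A.Z1ΔC, where it stood 2.41 above its wild-type value.

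A list was made of genes whose products handle H2A.Z and of other H2A histones, and its members measured by a named probe showed no comparable change. The second H2A.Z gene, H2AZ2, was not among them, because no probe was matched to it. The sources used here do not say which gene the V00414 probe belongs to, so it may be a gene of this kind. That probe was well above background on all 3 arrays, and its differences from wild type were -8.91 and -9.63. Of 51 symbols listed, 39 matched the RefSeq table, 16 had a named probe and 15 were measured on all arrays, so most of the list was not measured by a named probe. The H2A genes were each listed under an older and a newer name, giving 10 of the symbols and 5 of the matches. The list therefore holds fewer genes than symbols. None of the 15 was higher by 1 or more in the full-length line (1.17% of all named genes were) and none was lower (1.91%). With H2A.Z1ΔC against wild type none was higher (3.31%) and 1 was lower (3.41%). Between the DKO lines none was higher (2.89%) and none lower (1.5%). The median log2 difference of the 15 genes was -0.11 in the full-length line, -0.07 with H2A.Z1ΔC and 0.00 between the DKO lines, against -0.02, 0.00 and 0.01 over 4194 named genes. These counts are near the background at this list size. With the spike-in controls as the scale, the list's median with H2A.Z1ΔC was 0.61 against wild type, beside 0.69 over all probes, so signs in that line are relative to the array's other probes.

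Of the SRCAP and TIP60/p400 subunits 5 were measured. ACTR6, a subunit of the SRCAP complex, differed from wild type by 0.10 and 0.28 in the full-length and H2A.Z1ΔC lines. YEATS4, a reader of acetylated histones found in both complexes, differed by 0.17 and 0.71, the highest values of the list in each line. ING3, a TIP60/p400 subunit, differed by -0.44 and -0.96. RUVBL1, an ATPase shared by these complexes and by INO80, stood at -0.06 and -0.07. The matrix column of the full-length sample gave 0.61 for YEATS4 and -0.92 for ING3, close to their H2A.Z1ΔC values. It gave 0.14 for ACTR6, -0.21 for RUVBL1 and -0.45 for BRD8, the fifth subunit. How YEATS4 and ING3 compare between the DKO lines thus depended on the set of values used. None of the 5 reached a difference of 1.

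Of the INO80 subunits, which belong to a remodeller that acts on nucleosomes with H2A.Z, 3 were measured, and they ranged from -0.20 to 0.03 in the full-length line and from -0.22 to 0.16 with H2A.Z1ΔC. The ATPase INO80 itself gave the lowest value in both. The 4 measured histone chaperones were ANP32E, ASF1A, NAP1L4 and SSRP1. ANP32E differed from wild type by 0.06 and -0.15. The other 3 ranged from -0.17 to -0.07 in the full-length line and from -0.24 to -0.01 with H2A.Z1ΔC. In the matrix, the full-length sample ranged from -0.49 to 0.30 for the INO80 subunits and from -0.44 to 0.07 for the 4 chaperones.

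Among the other H2A genes of the list, H2AFY2, which encodes macroH2A2, was the member that passed a difference of 1. Its mean over 3 probes was -2.10 in wild type, -2.93 in the full-length line and -3.10 with H2A.Z1ΔC. The differences from wild type were -0.83 and -1.0, and the matrix column of the full-length sample gave -1.06. Its probes disagreed in size, with -0.57, -1.75 and -0.69 in the H2A.Z1ΔC line, so a single probe carried the mean past the threshold. H2AFY, the gene of macroH2A1, stood at -0.26 and -0.25. H2AFJ, the brightest of these genes with a mean level of 5.01 over 6 probes, differed by -0.14 and 0.25. Because many H2A genes resemble each other closely and may cross-hybridise, the value of H2AFJ is uncertain as that of a single gene. None of the 3 measured H2A genes of the list was higher by 1 or more in either DKO line. The list does not cover every H2A gene, and HIST1H2A4, which was measured on all arrays, was not on it.

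**Figure D5:**
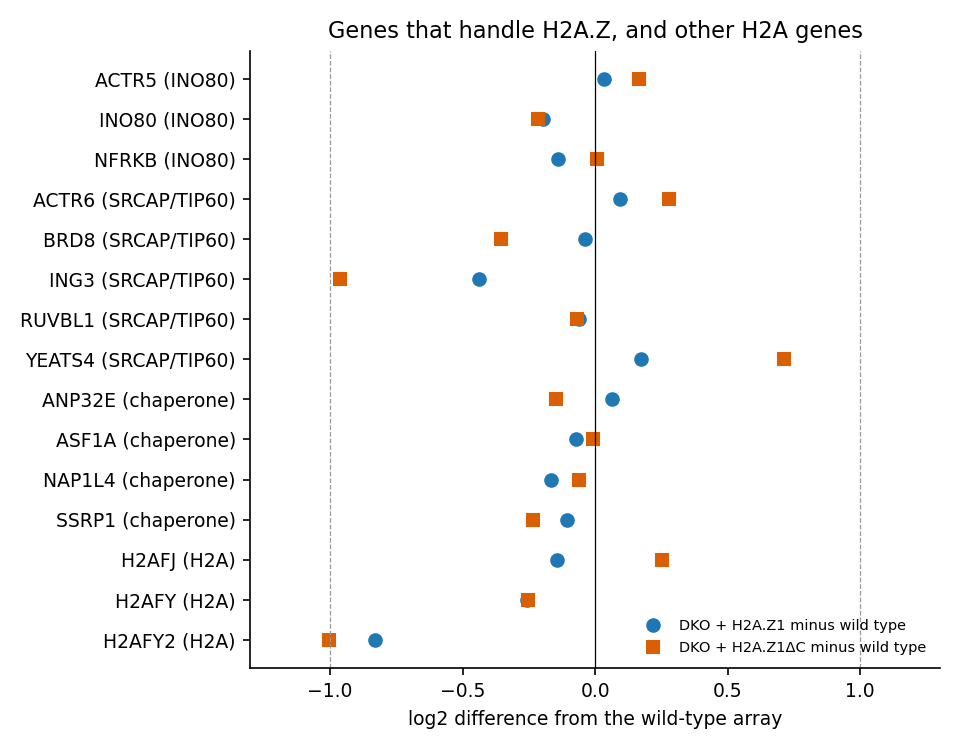
Log2 difference from the wild-type array (horizontal axis) in DKO cells with full-length H2A.Z1 (circles) and with H2A.Z1ΔC (squares) for the 15 measured genes of the list, with dashed lines at -1 and 1. All values lie between -1.0 (H2AFY2) and 0.71 (YEATS4), against -5.06 to -7.02 for the H2AFZ probes, which lie outside the axis.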

How the data were processed

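Per the labels' protocols, Cy3-labelled cRNA made from total RNA of each cell line was hybridised to Agilent arrays. The protocols describe a blood RNA kit followed by globin depletion, although the cells are a cultured line. Per the file headers, the scanner software was Agilent Feature Extraction, version 11.5.1.1, and the deposited processed signal is a linear intensity after background subtraction and removal of spatial trends within the array, unscaled between arrays. The deposited matrix values are linear intensities whose making is not given in the sources used here. No column of sample values was left unmapped (0 columns).

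Control spots and flagged spots were left out (7 of 43603 probes lost). Each level is a log2 processed signal, less the 75th percentile of its array. Differences use probes well above background on both arrays. A difference was counted at 1 or more (log2). Probes were named by RefSeq accession (assembly GRCg7b), which named 11934 probes (27.4%). Gene values are means over probes measured on all arrays. The gene list was matched by current symbol.

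Named genes were the 5 nearest to H2AFZ among genes measured on all arrays, the 3 nearest genes with a probe on each side, and list members past 1 or brightest in their class. Members, lists and rules were chosen with earlier results of these data known. Further list members are named as extremes, chosen after their values were seen.

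Python 3.11.15, pandas 2.3.3 and limma 3.58.1 in R 4.3.3 were used. The calculation was tested on simulated data. Alternatives were median scaling, no scaling, quantile normalization, cyclic loess, normexp (offset 50, on median signals, since no mean signal column is in the files used) with the 75th percentile or quantile normalization, raw median signal, matrix values, no background filter, the brightest probe per gene and, chosen after seeing the data, spike-in scaling. With 1 array per group no test, replicate removal or slide block was possible.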

Additional observations from a re-analysis of the deposited data

How the results depend on the processing

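With 1 array per group no replicate could be left out. No paired analysis was possible because each group holds 1 array and no test was made. A value was taken as unmoved within the root mean square gap between probes of one gene (0.261, 0.419 and 0.347 in full-length against wild type, H2A.Z1ΔC against wild type and H2A.Z1ΔC against full-length), a count within a factor of 1.5, a list median within 0.1 and a rank within 5 percentile points. Of 159 recomputed values 131 were unmoved by these limits and 28 moved. The gap between the H2AFZ probes was unmoved in all 27 recomputations, but part of these could not have moved it. Median scaling, no scaling and spike-in scaling subtract a constant per array. They leave this gap, and the counts of probes lower by as much, fixed by construction. The matrix values likewise fix the gap in H2A.Z1ΔC against wild type. Every H2AFZ difference from wild type kept its direction, at -5.53 to -4.96 (probe 1) and -6.81 to -6.33 (probe 2) in the full-length line and at -6.57 to -5.40 and -7.50 to -6.34 with H2A.Z1ΔC. Matrix values gave -5.53 and -6.81 in the full-length line and -0.55 for probe 1 between the DKO lines. Without scaling, H2A.Z1ΔC gave -6.57 and -7.50 against wild type and -1.60 and -1.12 against full-length. Spike-in scaling gave -5.40 and -6.34, then -0.39 and 0.091. The list median in H2A.Z1ΔC became -0.56 against wild type and -0.58 against full-length without scaling, and 0.61 and 0.63 with spike-ins. By construction these scalings also move all probes (medians of -0.48 and -0.55, and of 0.69 and 0.66). Probes lower by at least as much as the less changed H2AFZ probe numbered 6 in the full-length line, but 3 with either normexp setting or raw signal and 13 with no background filter. In H2A.Z1ΔC against wild type they numbered 3, but 6 with no filter. Between the DKO lines they numbered 2256, but 951 with normexp and the 75th percentile, 1130 with normexp and quantile normalization, 1093 with raw signal and 6348 with matrix values. Apart from the scalings, the cause was not tested.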
